A study of Mus musculus with 3 samples.

Results

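The genes described are 5 that make or carry secreted antibody: the immunoglobulin heavy chains Igha and Ighm, the lambda light-chain variable gene Iglv1, the plasma cell transcription factor Xbp1 and the polymeric immunoglobulin receptor Pigr. Their probes were found by name, as those whose annotated symbol equals 1 of these 5. The rule uses no measured value, but the 5 genes were picked with earlier results of these data known. This gave 9 of the 16273 probes in the table: 1 each for Igha, Ighm, Xbp1 and Pigr, and 5 for Iglv1. The study compared mouse spleen with a common reference on 3 arrays with 2 colours each, which make up a single group. On every array the red channel (Cy5) held cRNA of purchased spleen total RNA, while cRNA from the purchased Universal Mouse Reference RNA (UMRR), which pools the RNA of several cell lines, was in Cy3, the green dye. Each RNA bears 1 product number, the same on every array, and the labels give no strain, sex, age or number of animals, so the spread between arrays may be technical and says nothing of other spleens.

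Antibodies are built from paired heavy and light chains. B cells that have not yet switched class carry IgM, whose heavy chain is encoded by Ighm, and class switching joins the same variable region to another constant region such as that of Igha, which gives IgA. Plasma cells secrete these chains in bulk, and the spliced form of Xbp1, a factor of the unfolded protein response, enlarges their endoplasmic reticulum (ER). IgA and IgM polymers held together by the J chain are bound by the receptor that Pigr encodes, which is made mainly by epithelial cells of gut, glands and liver and carries them across the cell into secretions.

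Each value is the deposited log ratio of the red and green channels of an array, and neither its base nor its numerator is stated. Ratios above 0 are read as probably higher in spleen. The basis is the labelling (spleen in red, with red over green the customary ratio) and the signs of cell markers. All 7 measured B cell markers were positive (median 2.72), among them the complement receptor Cr2 at 3.91 (1.59 with 0 kept as a value) and the surface protein Ms4a1 at 3.53, as were 6 of 6 erythroid markers (median 2.70) and 4 of 5 T cell markers (median 2.24, with Cd3d negative at -0.85), whereas 8 of 8 fibroblast and matrix markers were negative (median -1.76). Since antibody genes belong to the same lymphocytes, their own sign is not independent evidence of the direction. An exact 0 was read as no measurement, which left 68.1% of probes measured on all 3 arrays, with medians from -0.029 to -0.027 and Pearson's r between arrays from 0.952 to 0.969 across probes, which are not independent replicates. In bulk RNA, more cells of a type and more RNA per cell cannot be told apart, and without a labelled dye swap neither can dye and tissue.

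All 5 genes had positive ratios on every array and all 5 passed the test against 0 (limma, adjusted p under 0.05). Across the 6077 genes measured on all arrays 70.3% passed, 33.2% with a positive and 37.1% with a negative ratio, and at the probe level 68.3% passed, so a passed test alone sets no gene apart here. The size did differ: the median of all genes was -0.033, only 62 genes reached a mean of 3 or more, and Pigr, Igha, Iglv1 and Ighm were 4 of them, at ranks 8, 10, 19 and 60 from the top. Xbp1 stood at rank 1221.

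**Figure D1:**
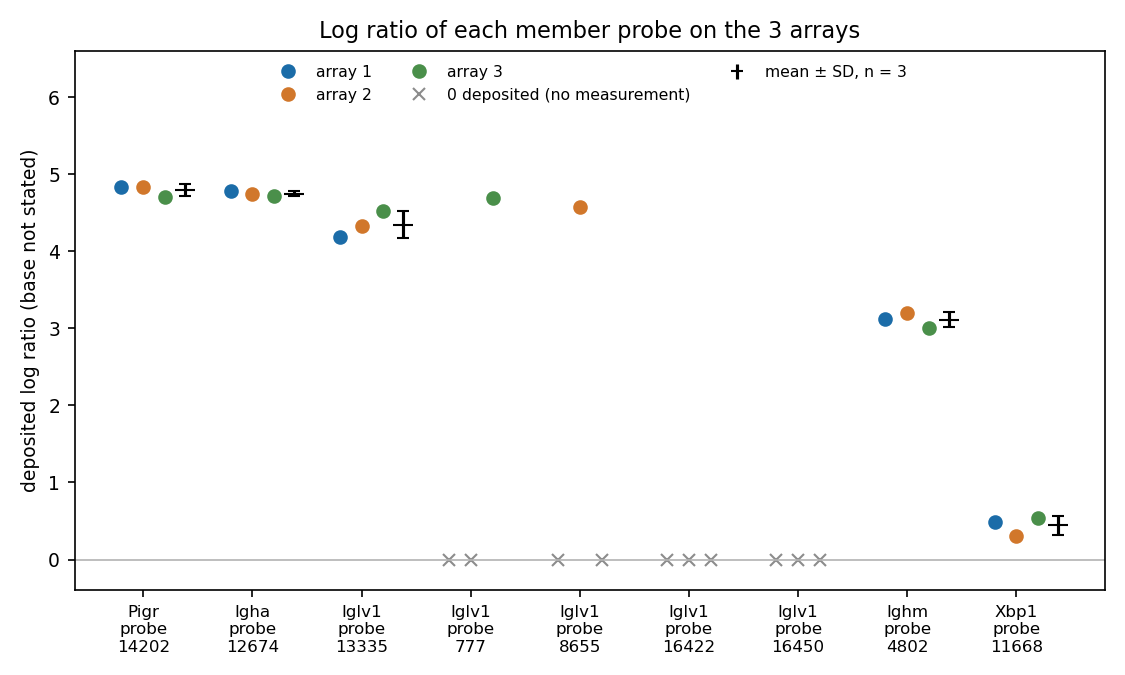
Deposited log ratio (vertical axis, base not stated) of each of the 9 probes on the 3 arrays, with the mean ± SD beside probes measured on all 3; crosses mark an exact 0, read as no measurement. Pigr, Igha and Iglv1 lie above 4, Ighm near 3 and Xbp1 near 0.44, and 4 of the 5 Iglv1 probes lack a value on 2 or 3 arrays.

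Igha, the constant region of the IgA heavy chain, had log ratios of 4.78, 4.74 and 4.72 on arrays 1 to 3. The 3 values lie within 0.059 of each other, and 94.4% of genes had a larger SD. Its mean of 4.74 ± 0.030 (SD, n = 3; limma adjusted p = 2.28e-08) corresponds to a 26.8-fold ratio if the base is 2 and to 115-fold if the logs are natural. Its rank among the 6077 genes was 11, 11 and 9 on the 3 arrays.

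Ighm, the constant region of the IgM heavy chain, had log ratios of 3.12, 3.20 and 3.01. The mean was 3.11 ± 0.098 (SD, n = 3; limma adjusted p = 7.99e-08), an 8.62-fold ratio in base 2 or 22.4-fold in natural logs. No array placed Ighm as high as Igha: the Igha ratio exceeded the Ighm ratio by 1.66, 1.53 and 1.71 on the 3 arrays. Differences between members are given as a description and were not tested. A larger ratio is also not a larger amount of RNA, because each probe has its own signal and its own level in the reference. Immunoglobulin genes share sequence, and a probe of a family member can bind the others.

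Iglv1, a variable gene of the lambda light chain, was measured on all 3 arrays by 1 of its 5 probes, probe 13335, with log ratios of 4.18, 4.33 and 4.53. The mean was 4.35 ± 0.17 (SD, n = 3; limma adjusted p = 5.06e-08), a 20.3-fold ratio in base 2 or 77.1-fold in natural logs. Its arrays were spread more widely than those of the other four members, with only 23.9% of genes at a larger SD. Probe 8655 had a value on array 2 alone, 4.58, and probe 777 on array 3 alone, 4.70. Both lay close to probe 13335 on the same array, 0.25 above it on array 2 and 0.17 above it on array 3. For comparison, genes with at least 2 measured probes and a mean beyond 3 in size were taken on each array. Their median range between probes was 0.63 on array 2 and 0.67 on array 3. A range grows with the number of probes, and these genes, Iglv1 among them, can have more than 2 (Clps had 8). The comparison therefore cannot rank the agreement of the Iglv1 probes. Probes 16422 and 16450 held 0 on all arrays. A further probe annotated to several lambda chain genes, and therefore no member, averaged 4.36 ± 0.14 (SD, n = 3). With 0 kept as a value the 5 probes of Iglv1 averaged 1.49 and the gene no longer passed (limma adjusted p = 0.0529).

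Of the 9 member probes 5 (55.6%) were measured on all arrays, against 68.1% of all probes. Another 2 had a value on 1 array and 2 on none, and every incomplete one belongs to Iglv1. Probes with a value on at least 1 array form another base, which leaves out those at 0 throughout. Of these, 59 of the 68 averaging 4 or more (86.8%) were complete. Where the mean was under 1 in size, 84.3% were complete. The 55.6% counts probes at 0 throughout and does not compare with these shares. The Jchain probe, for the chain that links IgA and IgM into polymers, held 0 on all 3 arrays and gives no level; Jchain was singled out after its values were seen.

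The immunoglobulin family list held 6 genes on the array, of which 5 were measured on all arrays and 5 were positive. Over all genes 33.2% were called positive. The list median of 3.11 is the Ighm value, as 3 of the 5 are members. The other 2, with a median of 1.57, are Vpreb3 and Vpreb1. Vpreb3, a B cell protein that also stands in the B cell marker list, had log ratios of 2.63, 2.79 and 2.74. Vpreb1, part of the surrogate light chain of early B cells, had 0.32, 0.54 and 0.40. Both passed (limma adjusted p = 1.28e-07 and 0.00128), but Vpreb1 did not pass a test against a 1.5-fold change in base 2 (adjusted p = 1).

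**Figure D2:**
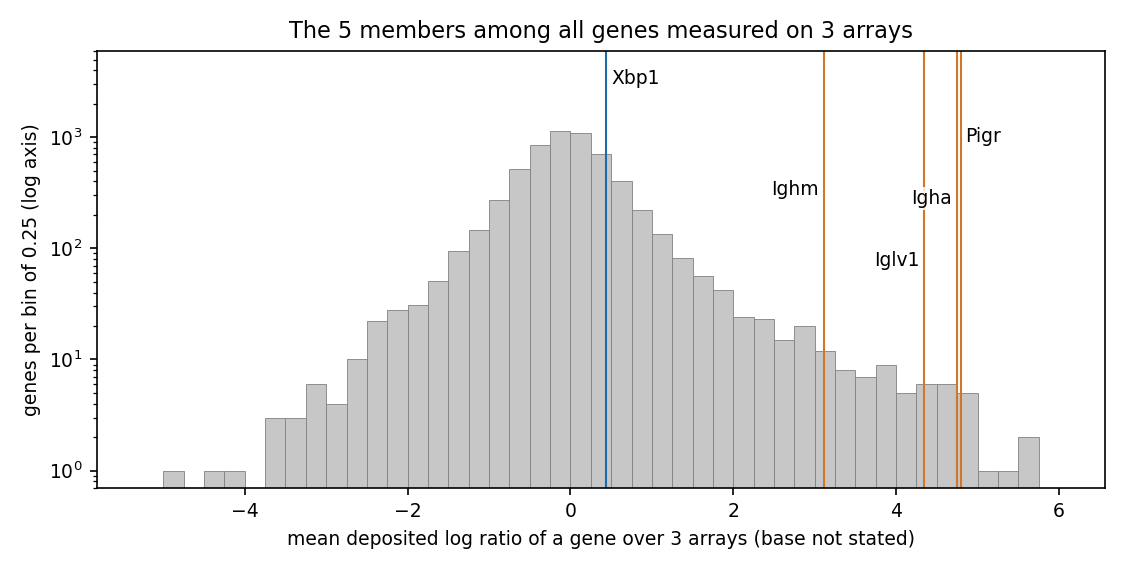
Number of genes (vertical log axis) by mean deposited log ratio over 3 arrays (horizontal axis, bins of 0.25), for the 6077 genes measured on all arrays. The lines of Ighm, Iglv1, Igha and Pigr stand in the thin upper tail, from 3.11 to 4.79, while that of Xbp1 at 0.44 crosses the main body of genes.

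Xbp1 was only slightly positive. Its log ratios were 0.49, 0.31 and 0.53 on the 3 arrays, above 0 on each and lowest on array 2. The mean was 0.44 ± 0.12 (SD, n = 3; limma adjusted p = 0.00112), a 1.36-fold ratio in base 2 or 1.56-fold in natural logs, and 79.9% of genes had a lower mean. The Ighm ratio exceeded that of Xbp1 by 2.47 to 2.90, and the Igha ratio by 4.19 to 4.43. The neighbouring probes in the table were also positive: the median of the 5 measured rows on either side, without Xbp1 itself, was 0.20, 0.30 and 0.22 on the 3 arrays. With that median subtracted the Xbp1 mean was 0.20 (adjusted p = 0.0418). With Xbp1 included in the median it was 0.15 and did not pass (0.114), while a median over 20 rows on either side left 0.29 and kept the call (0.00845). The part of such a local trend in the Xbp1 ratio was not tested further. The call also ended against a 1.5-fold change in base 2 (adjusted p = 1) and without moderated variance (0.0513).

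Other measured genes listed under plasma cell differentiation mostly had positive ratios. The list names 33 genes, of which 9 were on the array. Besides Xbp1 that list had 5 genes measured on all arrays, 4 of them positive and 1 negative, with a median of 1.20. With Xbp1 there were 5 positive and 1 negative calls, and the median was 1.01. Of all genes 33.2% were called positive and 37.1% negative. The highest of the list was Pou2af1, the B cell coactivator of octamer-binding factors, with log ratios of 1.97, 2.02 and 2.03. Pou2af1 is also one of the B cell markers, and Derl3 is also in the unfolded protein response list. The integrin chain Itgb7, used in homing to the gut, followed at 1.53, then Derl3, an ER degradation factor of secretory cells, at 1.20, and the gut-homing chemokine receptor Ccr9 at 0.82. Fkbp11, an ER prolyl isomerase abundant in secretory cells, was negative at -1.29 ± 0.098 (SD, n = 3; limma adjusted p = 3.98e-06). Tnfrsf17, the plasma cell survival receptor, and the chemokine receptor Cxcr4 had only zeros, like Jchain, and were named after that was seen.

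The list of unfolded protein response genes and Xbp1 targets went both ways. It does not separate Xbp1 targets from the other genes of the response. Among its 19 measured genes there were 6 positive and 11 negative calls and 2 genes without a call. The list median was -0.22, against -0.033 for all genes, of which 33.2% were called positive and 37.1% negative. The positive side was led by Derl3 and by Dnajb9, an ER co-chaperone (1.31, 0.96 and 1.00 on the 3 arrays). The negative side was led by Ero1a, an ER oxidase also induced by hypoxia (-1.20, -1.06 and -1.21), and by the stress factor Ddit3 at -0.83. Hspa5, the main ER chaperone, had a mean of -0.18 and did not pass; it lies outside the naming rule and was picked with its value known. Fewer calls remained against a 1.5-fold change, as across the table: 4 of the 19 passed, 2 in each direction, beside 1208 of all 6077 genes.

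Genes of ER translocation and signal peptide processing, the entry route of every secreted chain, had calls in both directions, more of them negative. There were 4 positive and 9 negative calls among 21 measured genes, 8 had no call, and the median was -0.10. Across all genes 33.2% were called positive and 37.1% negative, with a median of -0.033. The 4 furthest from 0 were all negative: the translocon subunit Sec61a2 at -1.17, the signal peptidase subunit Spcs3 at -0.90 (-0.58 and -0.56 with the running median over 5 and 20 rows removed), and the translocon-associated proteins Ssr2 at -0.89 and Ssr4 at -0.72. With 0 kept Ssr4 was at -0.36, and it did not pass against a 1.5-fold change (adjusted p = 0.156). The highest gene of the list was at 0.33. Against a 1.5-fold change 3 of the 21 passed, all negative, beside 1208 of all 6077 genes.

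Pigr had the largest ratio of the 5 genes, with log ratios of 4.84, 4.84 and 4.70. The mean was 4.79 ± 0.081 (SD, n = 3; limma adjusted p = 2.28e-08), a 27.7-fold ratio in base 2 or 120.5-fold in natural logs. Its rank was 9, 8 and 10 on the 3 arrays. It did not stand apart from Igha: the Pigr ratio was higher by 0.061 and 0.10 on arrays 1 and 2 and lower on array 3, a difference of -0.021 for Pigr minus Igha.

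RefSeq (GRCm38.p6) promoter sequences were at hand for 2 of the 5 genes, Pigr and Xbp1, the members with the largest and the smallest ratio. The 250 bases upstream of the start are shown so that both can be compared, 5′ to 3′ on the plus strand, with the match to a searched motif in capitals. They lie at chr1:130826434-130826683 for Pigr and chr11:5520391-5520640 for Xbp1.
Pigr: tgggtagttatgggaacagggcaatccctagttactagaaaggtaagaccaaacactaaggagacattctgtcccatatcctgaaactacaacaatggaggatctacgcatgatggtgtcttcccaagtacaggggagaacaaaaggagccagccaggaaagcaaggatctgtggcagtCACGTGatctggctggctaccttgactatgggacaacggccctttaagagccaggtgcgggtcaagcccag
Xbp1: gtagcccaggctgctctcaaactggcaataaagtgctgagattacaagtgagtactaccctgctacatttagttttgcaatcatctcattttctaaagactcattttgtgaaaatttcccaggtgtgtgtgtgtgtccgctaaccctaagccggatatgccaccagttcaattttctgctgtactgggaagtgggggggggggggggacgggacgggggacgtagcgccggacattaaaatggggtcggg
The search covered both strands for 6 motifs. These were the octamer ATTTGCAT of immunoglobulin promoters, the TATA box spelled TATAAA, the E-box spelled CACGTG, the core ACGTGG of unfolded protein response elements, a tandem GAAA with 2 bases between its copies, as in interferon response elements, and the ER stress element, which is CCAAT followed after 9 bases by CCACG. The E-box and the core share letters and can overlap. Pigr held 1 E-box, which starts 71 bases before the start site and reads the same on both strands, and 6.02% of all 32851 upstream windows hold this motif. The other five motifs had no match in either window, and they occur in 1.6% (octamer), 12.4% (TATA box), 6.91% (ACGTGG), 2.98% (GAAA repeat) and 0.113% (ER stress element) of windows. A match is a description of letters and no binding site. Both windows had a GC content of 50.4%, against a median of 52.4% for all windows.

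**Figure D3:**
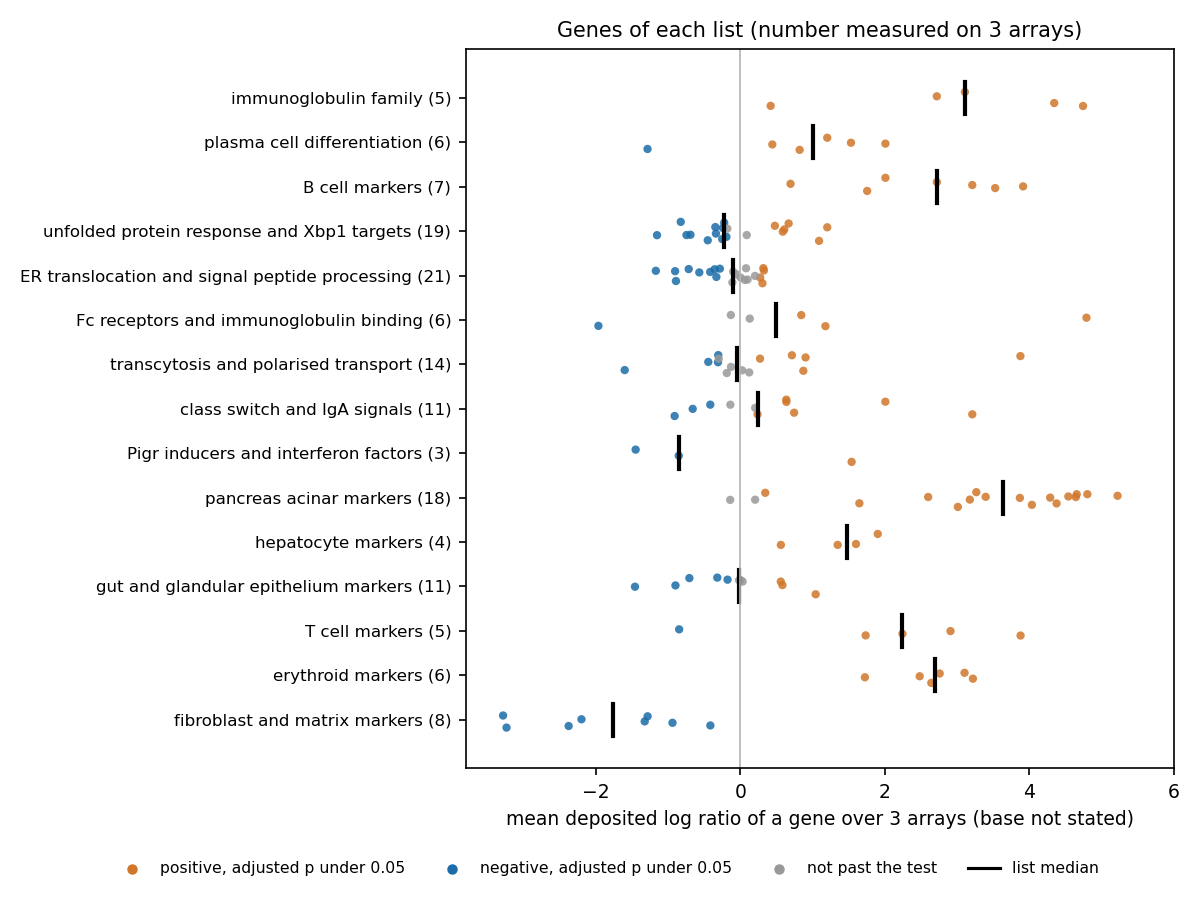
Mean deposited log ratio over 3 arrays (horizontal axis, base not stated) of every measured gene in each list, with the number measured in brackets; colour gives the direction of a passed test and the black bar the list median. Medians of the immunoglobulin (members included), B cell, erythroid, T cell and pancreas acinar lists lie far to the right (3.11, 2.72, 2.70, 2.24 and 3.63). Some single genes of these lists lie near or below 0. The unfolded protein response and ER translocation lists straddle 0 (medians -0.22 and -0.10).

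Because Pigr is an epithelial gene, markers of cell types that make it were read beside it. Pancreas acinar markers reached the same size: 16 of 18 measured genes were called positive and 0 negative, 13 had a mean of at least 3 and 2 exceeded Pigr. Their median was 3.63 and their range -0.14 to 5.22. The secreted protein Reg2 had a mean of 5.22, the zymogen granule protein Gp2 4.80, the lipase relative Pnliprp2 4.66 and the ribonuclease Rnase1 4.64. The log ratios of the 18 genes summed to 58.7, 58.9 and 56.3 on the 3 arrays. The list names 35 genes, of which 20 were on the array. Among those 20 only Bhlha15, the acinar transcription factor, had zeros for every probe. The 2 measured genes that did not pass were Ptf1a at 0.20 and Cel at -0.14, both outside the naming rule. Of the 26 genes with a mean of 4 or more, 8 are acinar markers and 3 are Pigr, Igha and Iglv1. Hepatocyte markers were positive for 4 of 4 measured genes with a median of 1.47 (transthyretin Ttr 1.90, apolipoprotein Apoc3 1.60, retinol carrier Rbp4 1.35 and fatty acid binder Fabp1 0.56), and summed to 5.53, 5.51 and 5.19. With 0 kept Ttr was at 0.95 and Rbp4 at 0.82, Apoc3 was at 1.07 with the running median over 5 rows removed, and Fabp1 did not pass against a 1.5-fold change (adjusted p = 1) and was at 0.87 with the median that leaves out the own probe. Markers of gut and glandular epithelium went both ways, with 3 positive, 5 negative and 3 not passing of 11, a median of -0.019, the keratin Krt20 at -1.46, the trefoil peptide Tff2 at 1.04, and the tight junction proteins Ocln at -0.90 and Cldn7 at -0.71 (-0.35 with 0 kept, and no call against a 1.5-fold change, adjusted p = 0.231). Beside the counts of the acinar, hepatocyte and epithelium lists, 33.2% of all genes were called positive and 37.1% negative. The part of acinar or liver RNA in the Pigr, Igha and Iglv1 ratios was not tested.

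The other measured genes listed with Fc receptors and immunoglobulin binding had far smaller ratios than Pigr. The Fc receptor list had 6 measured genes, with 3 positive calls (Pigr included), 1 negative call and a median of 0.49. Without Pigr the median was 0.13. Among all genes 33.2% were called positive and 37.1% negative. Fcer1g, the signalling chain shared by Fc receptors, had a mean of 1.18 and the Fc receptor-like gene Fcrls 0.84, whereas Lgals3, a lectin that binds IgE, had -1.97. The neonatal receptor Fcgrt, which carries IgG, had a mean of -0.13 and did not pass. Its 4 complete probes disagreed, with means of -0.95, -0.30, -0.24 and 0.97, and its 3 incomplete probes were negative wherever measured. The gene was called negative with the median of its probes (-0.27, adjusted p = 0.00916) and with probes on at least 2 arrays (-0.32, 0.00812), and positive with the probe furthest from 0 (0.97, 5.19e-05). The high-affinity IgG receptor Fcgr1 had a mean of 0.13 over 5 probes and did not pass, though its probe furthest from 0 (0.26) did. The inhibitory receptor Fcgr2b and B2m, the partner chain of Fcgrt, had only zeros.

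The list of transcytosis and polarised transport, the machinery that moves Pigr through a cell, held 14 measured genes. Of these 5 were positive, 4 negative and 5 not passing, with a median of -0.052. These counts are near the shares over all genes, 33.2% called positive and 37.1% negative. The recycling GTPase Rab4a was the highest at 3.91, 3.95 and 3.78, and the next were the exocytic Rab27a at 0.90 (1.48 with its probe furthest from 0) and Rab4b at 0.87. Rab11fip5, an effector of Rab11 in recycling endosomes, was lowest at -1.60 ± 0.41 (SD, n = 3). The epithelial Rab25, like Rab3b, which binds the Pigr protein, had zeros only, and both were named after that was seen. Against a 1.5-fold change 4 of the 14 passed, 3 positive and 1 negative, beside 1208 of all 6077 genes.

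The genes nearest to each member by Euclidean distance over the 3 log ratios were found among the 6077 genes. Because the 3 arrays repeat the same RNAs, a small distance means a ratio of similar size. It shows no link between genes. Symbols that end in Rik or start with LOC, or with Gm and a digit, were left out, but the counts within 0.5 include them. Igha and Pigr were each other's nearest gene, at a distance of 0.12, and for both the next were the chromatin organiser Satb1 and the membrane protein Ms4a4c, at 0.13 each from Igha and at 0.18 and 0.16 from Pigr. For Iglv1 the nearest were the acinar protease Ctrl (0.30), the membrane protein Ms4a6c (0.31) and the pancreatic colipase Clps (0.40). For Ighm they were the pancreatic carboxypeptidase Cpa1 (0.15), the B cell receptor kinase Syk (0.17) and Tbc1d10c (0.22). Few genes share such large ratios: 10 genes lay within 0.5 of Igha, 9 of Pigr, 5 of Iglv1 and 25 of Ighm, against 1188 of Xbp1. The nearest to Xbp1 were Commd9 and Smarca2, both at 0.022, and Kcnab2 at 0.036.

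**Figure D4:**
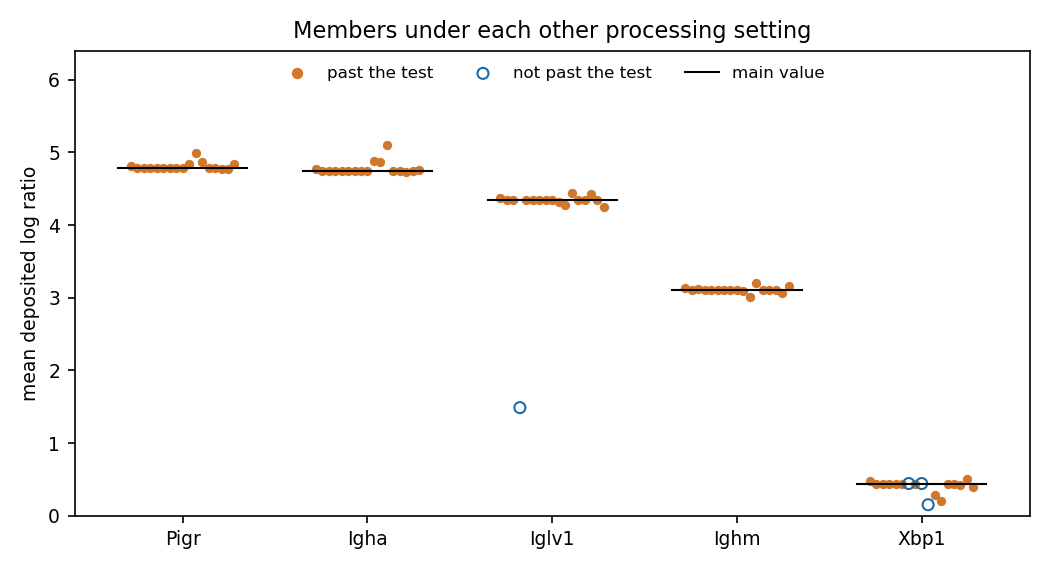
Mean deposited log ratio (vertical axis) of the 5 genes under each of 17 other processing settings, filled where the gene passed that setting's test and open where it did not, with the main value as a line. Pigr, Igha and Ighm passed under all 17, Iglv1 under 16 and Xbp1 under 14. Settings that combine probes or admit probes on at least 2 arrays could not change these means, as each gene has 1 complete probe.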

How the data were processed

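The deposited table holds 16273 probes with 1 signed log ratio per array; what the authors did to make it (array scanning, background correction, normalization, log base) is not given in the sources used here. Gene names came from the supplied platform annotation: 12336 probes have 1 symbol, 61 several and 3876 none here, and matching gene IDs to RefSeq (GRCm38.p6, names only) changed 0 symbols. Exact 0 was read as no measurement. Probes of 1 symbol measured on all 3 arrays were averaged per array, and each gene and probe was tested against 0 across the whole table with limma 3.58.1 in R 4.3.3 (a two-sided moderated test of the intercept, called where the p-value adjusted by Benjamini-Hochberg was under 0.05). The fit was checked on simulated data with independent noise, which hold no trend along the table. No intensities were used, and precision is limited by the small number of arrays. The 5 members and all gene lists were chosen with earlier results of these data known, so they give no independent support. The rule for named genes covered, besides the members, the 4 genes furthest from 0 in each list (every measured gene in lists of at most 6) and the 3 genes nearest to each member. T cell, erythroid and fibroblast markers served to read the direction and are given mainly as counts. Other settings concern normalization, zeros, moderation, threshold, trends along the table, combining probes and leaving out each array. Plots used matplotlib 3.10.9 (Python 3.11.15).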

Additional observations from a re-analysis of the deposited data

How the results depend on the processing

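Each result was recomputed under 17 other settings; 1 of them, a running median that leaves out the probe itself, was chosen after seeing the data. Each of the 5 genes has 1 complete probe, so settings that combine probes or admit probes on at least 2 arrays could not change its mean. The stricter threshold on the adjusted p reused the main fit. Directions held for the 5 genes under every setting. Of their calls, Iglv1 lost its own with 0 kept (1.49, adjusted p = 0.0529), and Xbp1 lost its own without moderation (0.44, adjusted p = 0.0513), against a 1.5-fold change (0.44, adjusted p = 1) and with the running median over 5 rows on either side removed (0.15, adjusted p = 0.114; on array 2 that median was the Xbp1 value itself). Leaving out each array changed none of the 5 calls; the Xbp1 mean then lay between 0.40 and 0.51. Without moderation 4609 probes and 2770 genes passed, with 8 genes each of the unfolded protein response and ER translocation lists. Against a 1.5-fold change 2104 probes and 1208 genes passed, with 4 unfolded protein response, 3 ER translocation, 4 transcytosis, 3 class switch and 3 gut epithelium genes. With 0 kept, 10 unfolded protein response genes and 4 of 6 immunoglobulin family genes passed. List medians then fell in size to 2.10 for the immunoglobulin family and 1.76 for B cell markers. They were 0.44 for plasma cell genes with Xbp1, 0.95 for hepatocyte markers and 0 for the Fc receptor, transcytosis and class switch lists. Where no sentence here gives a cause, the cause was not tested. Signal over background is unknown, so depth cannot be weighed.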

Other observations

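Genes of class switching and of the signals that favour IgA, which the account above leaves out, were divided. There were 6 positive and 3 negative calls among 11 measured genes, and the median was 0.24. Over all genes 33.2% were called positive and 37.1% negative. Tnfrsf13c, the BAFF receptor of B cells, had log ratios of 3.35, 3.43 and 2.86, and Il10ra, the interleukin-10 receptor chain, 1.94, 2.27 and 1.81. Tnfrsf13c is also one of the B cell markers used to read the direction. Tnfsf13, which encodes APRIL, a survival factor for IgA plasma cells, had a mean of 0.74 (0.33 with the running median over 5 rows removed and 0.49 with the own probe left out of it, and no call against a 1.5-fold change, adjusted p = 0.105), while Xrcc6, the Ku70 protein of DNA end joining, had -0.91. Of the factors that induce Pigr, only 3 were measured on all arrays: the interleukin-17 receptor chain Il17ra was positive at 1.54, and the retinoic acid receptors Rarg and Rara were negative at -1.45 and -0.85. The other 4 on the array, the interferon-gamma receptor Ifngr1, Irf8, Rela and Tlr4, had zeros only, and were named after that was seen.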
